A study of Mus musculus with 9 samples.

Results

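The 37 genes described here encode proteins that copy DNA or drive cells from G1 into S phase. They were chosen as a list of symbols, and all 37 were found among the 24421 symbols of each tumor profile. All 37 also passed the filter on low values that left 14215 genes for testing. By role, 10 act in origin licensing, 4 in helicase activation, 10 in DNA synthesis as polymerase, clamp, clamp loader or ligase genes, 5 in nucleotide supply, 4 in G1/S control and 4 in chromatin copying or histone mRNA handling.

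The profiles come from 9 liver tumors of C57BL/6 mice at 11 weeks of age, with 3 of the group LHP, 3 of S7HP and 3 of S7HP+Snail. By the column headers, LHP belongs to a Luc construct, S7HP to Smad7, which inhibits signaling from TGF-β receptors, and S7HP+Snail to Smad7 together with Snail, a repressor of epithelial genes. The letters H and P, which all groups share, are not spelled out in the labels, and neither the promoter of the constructs nor the cells that carry them are given. Whether each tumor is from its own animal is not in the labels, and the p-values cover the spread among these 9 samples, which may be in part technical. Values are log2(quantile-normalized count + 1) from 3′ end sequencing, in which a transcript gives about 1 read whatever its length, so levels can be set side by side between genes without a length correction.

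Before S phase, the origin recognition complex, Cdc6 and Cdt1 load the Mcm2 to Mcm7 helicase onto origins. Cdc45 and the GINS complex then turn the loaded helicase into an active fork, where the polymerases work with the sliding clamp Pcna. Many of these genes are targets of E2F transcription factors, which the retinoblastoma protein holds back until cyclin-dependent kinases, cyclin E with Cdk2 among them, phosphorylate it. Adult hepatocytes are mostly out of the cycle, and tumors or regenerating liver express these genes at higher levels.

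Promoter stretches of 4 members are printed because E2F factors are known regulators of these genes and because the 4 stretches differ in how many E2F-type matches they hold. The motif was any of TTTCCCGC, TTTGCCGC, TTTCGCGC or TTTGGCGC on either strand, where 1 strand's match can overlap the other's. Each stretch has 170 bases, lies upstream of the RefSeq start on GRCm38.p6, is given 5′ to 3′ on the strand of the gene, and has its E2F-type matches in capitals.
Mcm6, helicase subunit, chr1:128359706-128359875, minus strand: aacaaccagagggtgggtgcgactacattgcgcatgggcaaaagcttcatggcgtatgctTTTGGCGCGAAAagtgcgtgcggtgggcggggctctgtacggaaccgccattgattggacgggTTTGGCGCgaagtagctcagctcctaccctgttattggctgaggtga
Mcm5, helicase subunit, chr8:75109339-75109508, plus strand: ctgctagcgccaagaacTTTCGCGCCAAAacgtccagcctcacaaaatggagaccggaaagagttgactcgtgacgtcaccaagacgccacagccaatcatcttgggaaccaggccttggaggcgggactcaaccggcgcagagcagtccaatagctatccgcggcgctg
Pola1, catalytic subunit of the priming polymerase, chrX:93632156-93632325, minus strand: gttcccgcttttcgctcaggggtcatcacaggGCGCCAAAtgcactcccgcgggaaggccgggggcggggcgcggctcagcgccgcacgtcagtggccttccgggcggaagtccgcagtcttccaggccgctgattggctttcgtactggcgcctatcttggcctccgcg
Mcm2, helicase subunit, chr6:88898781-88898950, minus strand: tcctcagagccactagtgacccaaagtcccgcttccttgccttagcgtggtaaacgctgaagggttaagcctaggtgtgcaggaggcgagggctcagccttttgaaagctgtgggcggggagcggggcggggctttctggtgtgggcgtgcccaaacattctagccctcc
The Mcm6 stretch holds 3 matches, 2 of which overlap, the Mcm5 stretch holds 2 overlapping matches, the Pola1 stretch holds 1 and the Mcm2 stretch holds 0.

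RefSeq windows from 250 bases before to 50 after the start were matched for 32 of the 37 genes. Of these 32 genes, 13 (40.6%) held an E2F-type match, against 2.60% of the 27025 genes with a window. The 13 were Cdc6, Cdt1, E2f2, Lig1, Mcm3, Mcm5, Mcm6, Mcm7, Orc1, Pola1, Pold1, Rfc3 and Uhrf1. The letters CCAAT, on either strand, were in 19 of 32 members (59.4%) and in 41.1% of genes with a window. The letters TTTGAA, on either strand, were in 4 members (12.5%) and in 20.2% of genes. Such matches describe letters in these windows, not binding. The RefSeq start was not always at the 5′ end of the annotated gene. It lay 466 bases inside the gene for E2f1, 350 for Cdc6 and 325 for Dut, so these windows did not reach that end. A gene without a match here may hold one outside its window.

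Total read counts are not preserved by quantile normalization, so library depth is not known. The number of symbols at 0 can depend on depth and also on the cells in a tumor. Between 7750 and 8392 symbols were listed at 0 in a tumor, with the highest number in S7HP tumor 11. Smad7 lay between 9.49 and 10.50 in LHP, between 6.28 and 6.81 in S7HP and between 6.77 and 8.0 in S7HP+Snail. Snai1 lay between 9.93 and 11.16, between 6.17 and 6.92 and between 7.31 and 8.53 in the same order. Whether either construct has the 3′ end of the mouse gene is not given, so these levels are no check of the labels. Hepatocyte markers were found in every tumor, with a summed level of 30320 to 51660 normalized counts in LHP, 120900 to 352100 in S7HP and 95140 to 187100 in S7HP+Snail.

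The replication genes were detected in all 9 tumors. None was listed at 0 in any tumor, and the lowest single value was 3.96, for Pole in S7HP tumor 12. Mean levels over the 9 tumors ran from 5.35 for Gins1, a GINS subunit, to 12.34 for Lig1, the ligase that seals Okazaki fragments. The median of these means was 9.07, against 8.22 over all 14215 genes tested, and 8 members (Orc1, Gins1, Prim1, Pold1, Pole, Rfc4, E2f2 and Chaf1b) lay below the latter. After Lig1, the most abundant transcripts were Uhrf1, which brings the maintenance methyltransferase to replicated DNA, at 11.86, Dut, the dUTPase that keeps uracil out of DNA, at 11.73, and Orc6, an origin recognition subunit, at 11.71.

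**Figure D1:**
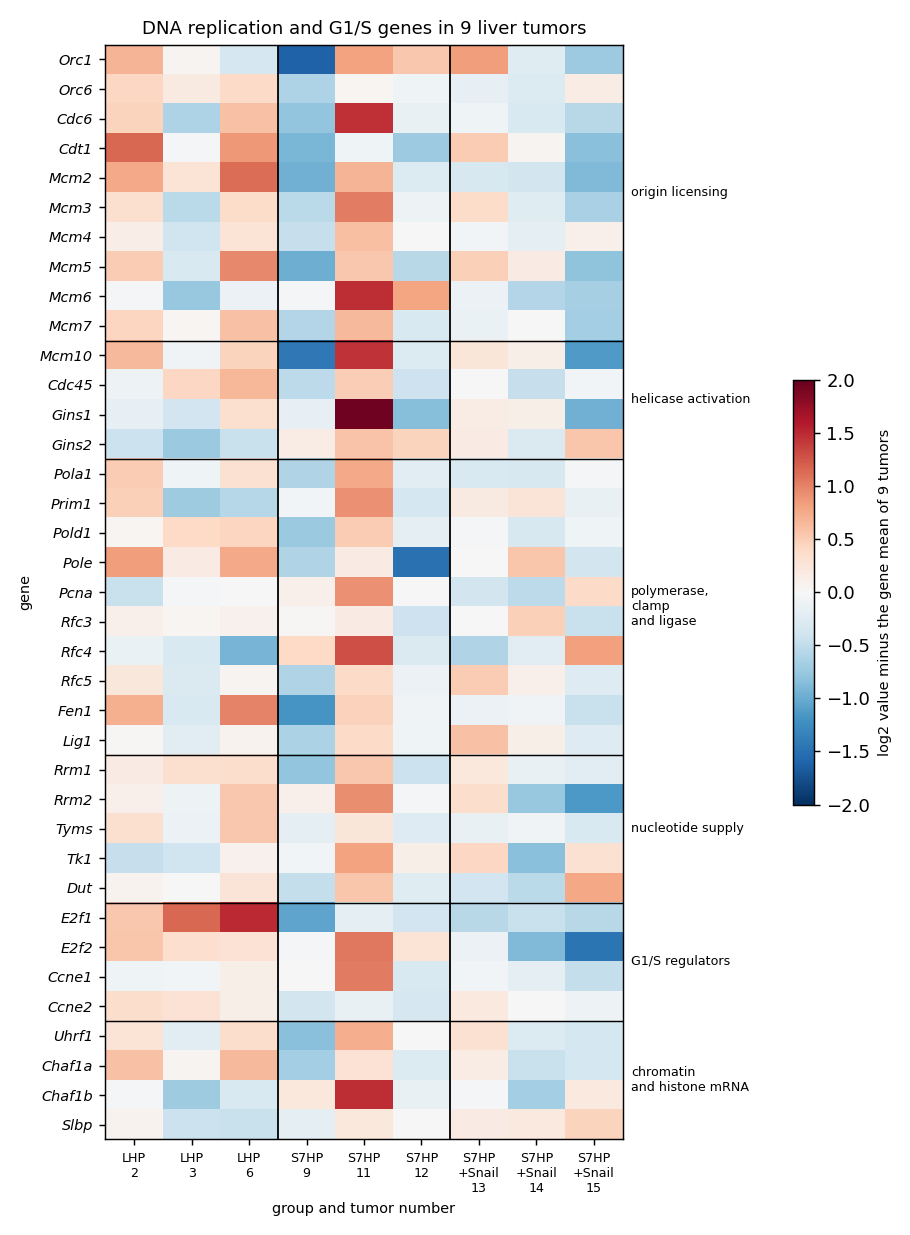
Colour map of the 37 genes (y axis, grouped by role) in the 9 tumors (x axis, group and tumor number), with colour giving the log2 level minus that gene's mean over the 9 tumors. S7HP tumor 11 is the highest of the 3 S7HP tumors for 37 of 37 genes, and E2f1 stands out as high in the 3 LHP tumors.

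S7HP was first set against LHP, which compares tumors of the Smad7 construct with tumors of the Luc construct. E2f1 fell, Gins2 rose, and the other 35 genes did not pass the test. The 2 called genes are 5.41% of the 37, against 19.0% of all 14215 genes called in this comparison, 9.47% higher and 9.54% lower (limma, Benjamini-Hochberg adjusted p under 0.05). The median difference of the 37 genes was -0.16 on the log2 scale, against 0.02 over all genes tested, and 33 of 37 (89.2%) differed by less than 1 log2 unit, against 67.7% of all genes. Differences were positive for 15 genes and negative for 22.

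E2f1 encodes an activating E2F factor, and it had the largest difference of the 37 genes in both comparisons against LHP. Its log2 level was 10.61, 11.21 and 11.56 in LHP tumors 2, 3 and 6, and 9.02, 9.88 and 9.69 in S7HP tumors 9, 11 and 12. In S7HP+Snail tumors 13, 14 and 15 it was 9.52, 9.62 and 9.51. Every LHP tumor lay above every tumor of the other groups, and the S7HP and S7HP+Snail values overlapped. E2f1 fell by 1.60 ± 0.30 (SE) on the log2 scale in S7HP, which is 3.04-fold lower, with a 95% interval of -2.27 to -0.93 (limma, Benjamini-Hochberg adjusted p = 0.0072). This call held in all 16 alternative settings, with differences between -1.86 and -1.35. E2f1 lies on GRCm38 chromosome 2, from 154559407 to 154569892 on the minus strand, and no other annotated gene overlaps it.

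Gins2 encodes another GINS subunit of the active helicase. Its log2 level was 8.46, 8.15 and 8.45 in LHP tumors 2, 3 and 6, 9.04, 9.46 and 9.34 in S7HP tumors 9, 11 and 12, and 9.05, 8.60 and 9.45 in S7HP+Snail tumors 13, 14 and 15. All 3 LHP tumors were below all 6 others. Gins2 rose by 0.93 ± 0.27 (SE) in S7HP, 1.90-fold, with a 95% interval of 0.33 to 1.52 (limma, Benjamini-Hochberg adjusted p = 0.0377). The call was lost in 7 of 16 alternatives, among them the omission of any 1 of the LHP or S7HP tumors, with adjusted p up to 0.122. Gins2 (GRCm38 chromosome 8, 120578633 to 120589304, minus strand) ends inside Gse1 and Gm20388 on the opposite strand, and the sources used here do not give the counting strand, so its reads and theirs may not be separable. The same limit holds for Orc1, Mcm7, Rfc4, Rfc5, Fen1, Tk1, Ccne2 and Chaf1a, which also end inside a gene on the opposite strand.

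Among the licensing genes, 0 of 10 passed the test, and 4 of 10 had positive differences. Cdt1, the loading factor that geminin inhibits, was at 10.70, 9.53 and 10.42 in LHP tumors 2, 3 and 6 and at 8.64, 9.47 and 8.82 in S7HP tumors 9, 11 and 12. The 2 groups did not overlap, with LHP tumor 3 and S7HP tumor 11 close to each other. The Cdt1 difference was -1.24 ± 0.42 (SE; limma, Benjamini-Hochberg adjusted p = 0.064). It passed in 3 of 16 alternatives, namely a fit of the 6 libraries alone, without LHP tumor 3 and without S7HP+Snail tumor 15, with adjusted p down to 0.0349. The gene Gm20388 covers the 3′ end of Cdt1 on the same strand, so reads there can be split between them. Orc6 differed by -0.54 ± 0.23 (SE) with no overlap between the groups (limma, Benjamini-Hochberg adjusted p = 0.127). Orc1, the large ATPase subunit of the origin recognition complex, ranged from 4.28 to 6.71 within S7HP, wider than its difference between groups of -0.23 ± 0.68 (SE).

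The helicase is a ring with 1 copy of each of the 6 subunits Mcm2 to Mcm7, and none of their genes passed the test in this comparison. Mcm2 was at 10.67, 10.18 and 11.02 in LHP tumors 2, 3 and 6, 8.94, 10.59 and 9.63 in S7HP tumors 9, 11 and 12, and 9.58, 9.54 and 9.02 in S7HP+Snail tumors 13, 14 and 15. Mcm6 was at 9.72, 8.99 and 9.63 in LHP, 9.72, 11.21 and 10.53 in S7HP and 9.63, 9.16 and 9.08 in S7HP+Snail, in the same tumor order. In LHP every tumor had more Mcm2 than Mcm6 transcript, and in S7HP every tumor had more Mcm6 than Mcm2. The S7HP minus LHP difference was -0.90 ± 0.40 (SE) for Mcm2 and 1.04 ± 0.37 for Mcm6, and neither passed the test (limma, Benjamini-Hochberg adjusted p = 0.144 and 0.0804). Mcm2 passed without S7HP tumor 11 (adjusted p = 0.0383) and Mcm6 without S7HP tumor 9 (adjusted p = 0.03). Mcm3, Mcm4, Mcm5 and Mcm7 differed by 0.08 ± 0.44, 0.04 ± 0.30, -0.72 ± 0.48 and -0.43 ± 0.34 (SE), with overlapping groups.

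The balance between subunits can be read within each tumor, which takes out any shift that the 6 genes share. Mcm6 minus Mcm2, a pair singled out after its values were seen and therefore not tested, was -0.95, -1.19 and -1.38 log2 units in LHP tumors 2, 3 and 6. The same difference was 0.78, 0.61 and 0.90 in S7HP tumors 9, 11 and 12, and 0.05, -0.37 and 0.06 in S7HP+Snail tumors 13, 14 and 15. The 3 groups occupied separate ranges, with S7HP+Snail between the other groups. Against the median of the other 5 subunits, the mean of Mcm6 was -0.70 ± 0.19 for LHP, 0.76 ± 0.15 for S7HP and -0.31 ± 0.33 for S7HP+Snail (SD, n = 3 each). Mcm2 on the same scale was at 0.71 ± 0.17, -0.40 ± 0.30 and -0.24 ± 0.20, and Mcm5 was at -0.13 ± 0.29, -0.87 ± 0.27 and 0.03 ± 0.30. Between S7HP and LHP, Mcm2, Mcm5 and Mcm6 did not overlap on this scale, against 22.6% of all genes after subtraction of the Mcm2 to Mcm7 median. The same share was 12.3% for S7HP+Snail against S7HP, where Mcm5 and Mcm6 did not overlap, and 21.6% for S7HP+Snail against LHP, where Mcm2 did not. Mcm3, Mcm4 and Mcm7 overlapped in each comparison on this scale. Before subtraction, Mcm2, Mcm5 and Mcm6 also overlapped between S7HP and LHP, where 42.1% of all genes did not. Subtraction takes out spread that the 6 genes share and can add it to other genes. The shares after subtraction are therefore not a like-for-like reference for these genes. Of all 666 pairs among the 37 genes, 38.1% had differences that did not overlap between S7HP and LHP. All 3 groups were kept apart, as for Mcm6 and Mcm2, by 15 pairs (2.25%). Within Mcm2 to Mcm7, 12 of 15 pairs did not overlap between S7HP and LHP, so that separation was common among these subunits. Of the same 15 pairs, 7 did not overlap between S7HP+Snail and S7HP, and 6 between S7HP+Snail and LHP. Mcm6 with Mcm2 was the 1 pair of the 15 that kept all 3 groups apart.

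**Figure D2:**
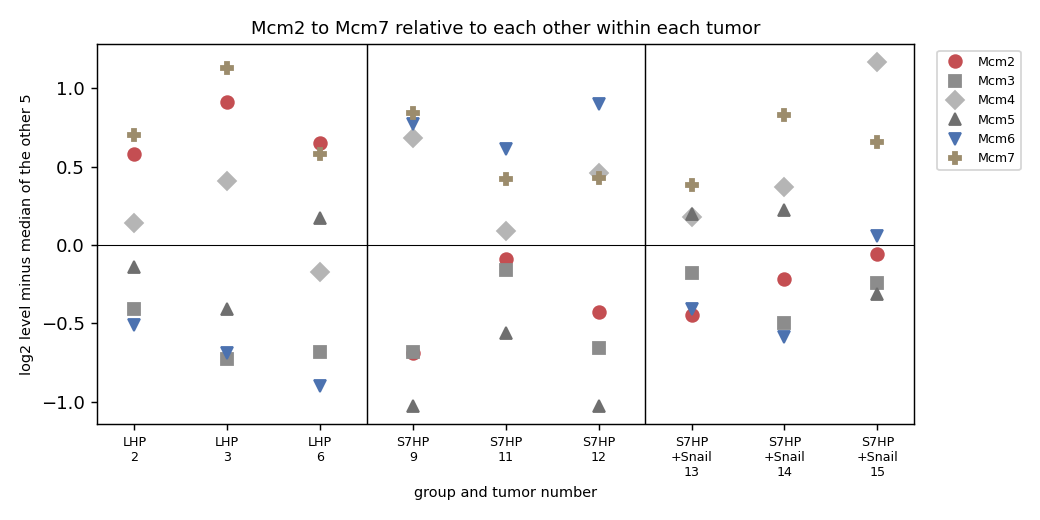
Log2 level of each of Mcm2 to Mcm7 minus the median of the other 5 in the same tumor (y axis), for the 9 tumors by group (x axis), 1 point per gene and tumor. Mcm6 lies below 0 in the 3 LHP tumors and between 0.61 and 0.90 in the 3 S7HP tumors, and Mcm2 lies between 0.58 and 0.91 in LHP and below 0 elsewhere.

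The remaining helicase activation genes did not pass. Mcm10, a fork assembly factor, differed by -0.43 ± 0.65 (SE) and Cdc45 by -0.47 ± 0.33. Gins1, at the lowest level of the 37, differed by 0.38 ± 0.70, and its S7HP values of 5.18, 7.29 and 4.50 spanned more than those of the other groups.

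In the DNA synthesis set, 0 of 10 genes passed. Pole, the leading-strand polymerase subunit, was at 6.30, 5.63 and 6.22 in LHP tumors 2, 3 and 6 and at 4.86, 5.62 and 3.96 in S7HP tumors 9, 11 and 12. The groups touched but did not overlap, with LHP tumor 3 and S7HP tumor 11 nearly equal. The Pole difference was -1.24 ± 0.52 (SE; limma, Benjamini-Hochberg adjusted p = 0.124). Pold1, the catalytic subunit of the lagging-strand polymerase, differed by -0.43 ± 0.34, and Pola1 by -0.27 ± 0.34. Prim1, the primase subunit, differed by 0.44 ± 0.44 and Pcna by 0.50 ± 0.33. The clamp loader subunits Rfc3, Rfc4 and Rfc5 differed by -0.15 ± 0.28, 0.92 ± 0.50 and -0.10 ± 0.31. Fen1, the flap endonuclease, differed by -0.74 ± 0.44 and Lig1 by -0.07 ± 0.30. Processed pseudogenes of Pcna and of Tyms may share reads with their parent genes.

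Nucleotide supply genes gave 0 of 5 called, with differences from -0.51 to 0.55. Rrm1 and Rrm2, the large and small subunits of ribonucleotide reductase, differed by -0.51 ± 0.32 and 0.16 ± 0.41 (SE). Tyms, thymidylate synthase, differed by -0.33 ± 0.25, the salvage enzyme Tk1 by 0.55 ± 0.37 and Dut by -0.16 ± 0.38.

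Among the 4 G1/S regulators of this set, E2f1 alone passed. E2f3, an E2F gene outside the set, was also called lower in S7HP. E2f2, an activating E2F closely related to E2f1, was at 8.21, 7.99 and 7.95 in LHP and at 7.61, 8.71 and 7.93 in S7HP, a difference of 0.03 ± 0.40 (SE). The LHP values lay inside the S7HP range. Ccne2, a cyclin E gene, was at 10.30, 10.24 and 10.06 in LHP tumors and at 9.58, 9.80 and 9.61 in S7HP tumors. The groups did not overlap, and the difference of -0.54 ± 0.19 did not pass (limma, Benjamini-Hochberg adjusted p = 0.0804). Ccne1, the other cyclin E gene, differed by 0.25 ± 0.34 with overlapping groups.

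Uhrf1 differed by -0.17 ± 0.38 (SE), Slbp, the histone stem-loop binding protein, by 0.28 ± 0.23, and the chromatin assembly factor subunits Chaf1a and Chaf1b by -0.65 ± 0.31 and 0.86 ± 0.47. All 4 overlapped between the groups.

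Without adjustment, 8 of the 37 genes had p under 0.05, 2 higher and 6 lower, against 34.4% of all genes tested. Groups did not overlap for 6 genes, Gins2 above and Orc6, Cdt1, Pole, E2f1 and Ccne2 below, against 42.1% of all genes. The 95% interval lay within 2 log2 units of 0 for 33 genes and within 1 log2 unit for 8. For the other members the interval reached past a 2-fold difference in at least 1 direction.

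**Figure D3:**
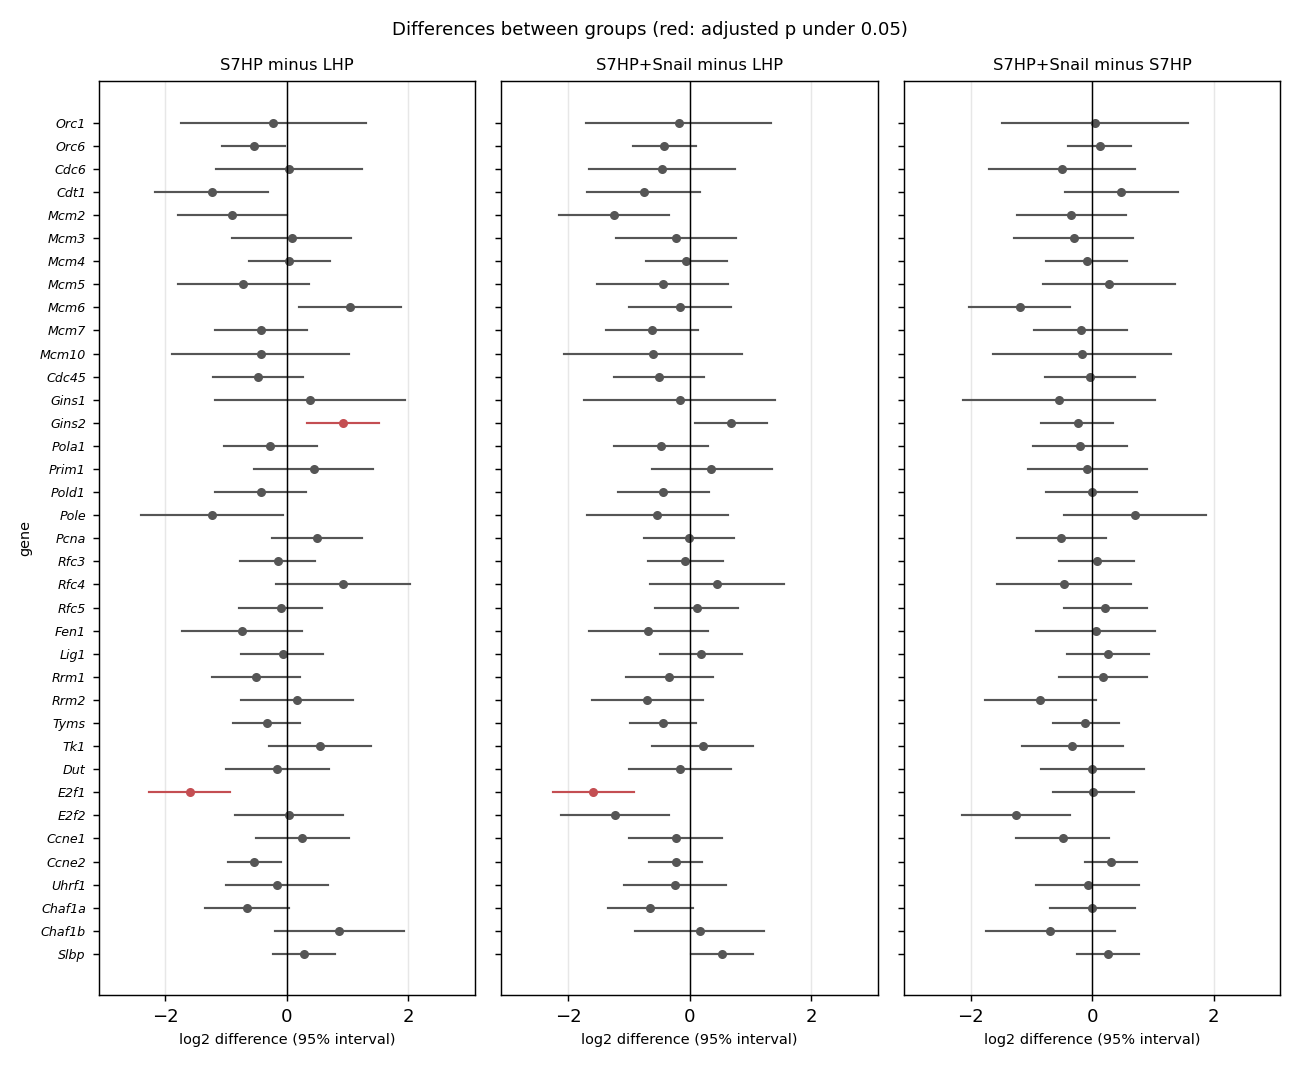
Log2 difference between group means (x axis, point) with its 95% interval (line) for each of the 37 genes (y axis), in 3 panels for the 3 comparisons, red where the adjusted p was under 0.05. E2f1 is red in both comparisons against LHP, Gins2 in S7HP minus LHP, and no gene in S7HP+Snail minus S7HP.

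The comparison of S7HP+Snail with LHP sets the tumors tied to Smad7 and Snail together against those tied to Luc, and it shares the LHP tumors with the comparison above. E2f1 fell by 1.58 ± 0.30 (SE), 2.99-fold, with a 95% interval of -2.25 to -0.91 (limma, Benjamini-Hochberg adjusted p = 0.0165). It was the only member called, 2.70% of 37 against 7.22% of all genes (3.35% higher and 3.87% lower), and 0 members rose. The call was lost without LHP tumor 3 or without LHP tumor 6, with adjusted p up to 0.0674 and differences between -1.84 and -1.36. The median difference was -0.24, with 8 positive and 29 negative differences. Groups did not overlap for 8 genes (2 above, 6 below) against 30.5% of all genes, and 5 had an unadjusted p under 0.05 against 25.1%.

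Of the licensing genes, 0 of 10 passed. Their differences ran from -1.24 to -0.05, and 50.1% of all genes tested had a negative difference. Groups did not overlap for 3 of the 10, about the share of all genes. Mcm2 differed by -1.24 ± 0.40 (SE) with every S7HP+Snail tumor below every LHP tumor (limma, Benjamini-Hochberg adjusted p = 0.094). Orc6 and Mcm7 also had no overlap, at -0.42 ± 0.23 and -0.62 ± 0.34. Cdt1 differed by -0.75 ± 0.42, with overlap.

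E2f2 was lowest where Snail was added, at 7.54, 6.77 and 6.19 in S7HP+Snail tumors 13, 14 and 15. All 3 values were below the 6 other tumors. The difference from LHP was -1.22 ± 0.40 (SE) and did not pass (limma, Benjamini-Hochberg adjusted p = 0.0958). Gins2 was 0.68 ± 0.27 above LHP and Slbp 0.54 ± 0.23 above, both without overlap and neither passing (limma, Benjamini-Hochberg adjusted p = 0.146 and 0.176). Pold1 was below LHP in 3 of 3 tumors at -0.43 ± 0.34.

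Adding Snail to S7HP, the comparison of S7HP+Snail with S7HP, gave 0 called members of 37, against 2.30% of all genes called, 1.01% higher and 1.29% lower (limma, Benjamini-Hochberg). The S7HP tumors also enter the first comparison. At an unadjusted p under 0.05, 2 members were lower and 0 higher, against 17.8% of all genes in either direction. Groups did not overlap for 3 genes against 20.5% of all genes. The median difference was -0.08, and 35 of 37 genes differed by less than 1 log2 unit.

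The 3 genes without overlap were Mcm6, E2f2 and Ccne2. Mcm6 differed by -1.19 ± 0.37 (SE) with a 95% interval of -2.03 to -0.36, and E2f2 by -1.25 ± 0.40 with an interval of -2.14 to -0.36 (limma, Benjamini-Hochberg adjusted p = 0.13 and 0.135). Ccne2 differed by 0.31 ± 0.19 in the other direction (limma, Benjamini-Hochberg adjusted p = 0.447). E2f1 differed by 0.02 ± 0.30, with an interval of -0.64 to 0.69. Rrm2 differed by -0.86 ± 0.41, with S7HP+Snail tumors at 9.36, 8.25 and 7.85 and S7HP tumors at 9.11, 9.94 and 8.98.

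**Figure D4:**
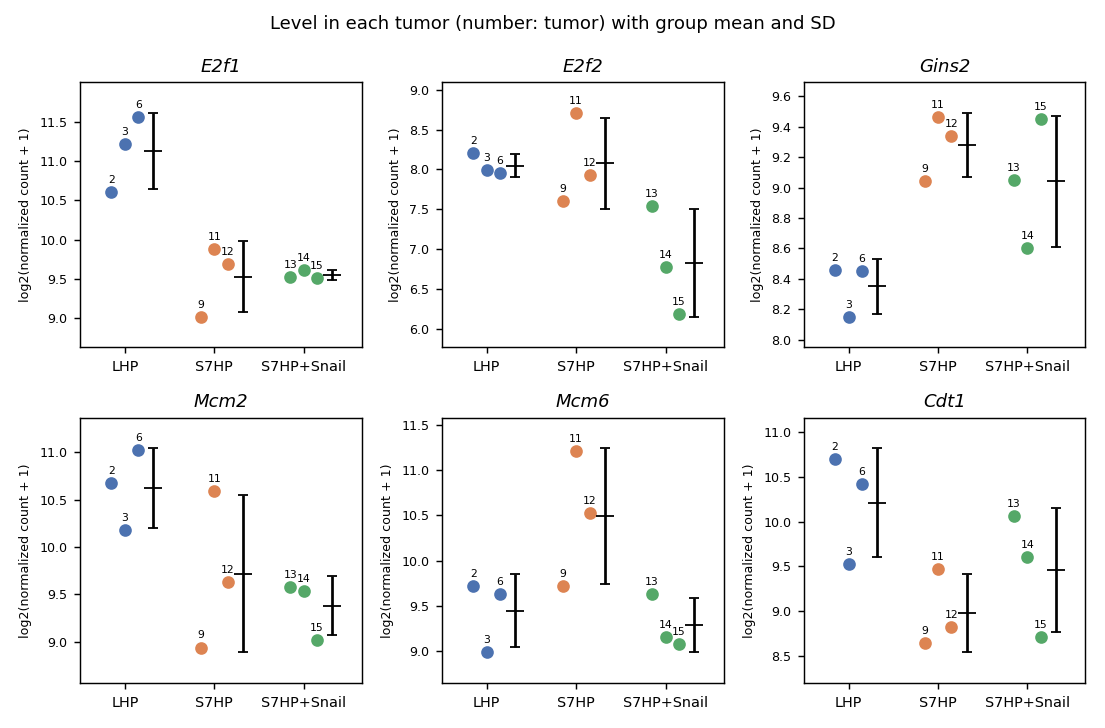
Log2(normalized count + 1) in each tumor (y axis, points numbered by tumor) for E2f1, E2f2, Gins2, Mcm2, Mcm6 and Cdt1 in the 3 groups (x axis), with the group mean and SD beside the points. E2f1 is at 10.61 or more in LHP and at 9.88 or less elsewhere, and E2f2 is lowest in S7HP+Snail.

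Tumors of 1 group differed from each other across the whole set, most of all in S7HP. S7HP tumor 11 had the highest level of the 3 S7HP tumors for 37 of 37 genes, whereas it was the highest for 35.4% of all genes tested. It exceeded tumor 9 by a median of 1.04 log2 units, from 0.13 to 2.87, the largest for Mcm10. It exceeded tumor 12 by a median of 0.78, from 0.12 to 2.79, the largest for Gins1. Over all genes tested the same median gaps were 0.04 and 0.01. The count was 37 under each of 3 other scalings chosen after this pattern was seen. Adding 16 to each count before the log keeps the order of values, so that scaling could not change it. Median centring could not either, as the S7HP medians over all genes were 8.28 to 8.29 and the smallest gap was 0.12. Cyclic loess scaling could have changed it. Tumor 9 was the lowest for 27 genes, including 10 of 10 licensing genes.

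The spread was smaller in the other groups. LHP tumor 3 was the lowest of its group for 25 genes and the highest for 0, with tumors 2 and 6 above it by medians of 0.44 and 0.40. S7HP+Snail tumor 13 was the highest for 21 genes and tumor 15 the lowest for 24. The median SD of the 37 genes was 0.33 among LHP tumors, 0.63 among S7HP tumors and 0.36 among S7HP+Snail tumors, against 0.35, 0.41 and 0.45 over all genes tested.

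Other values moved with tumor 11. It had the most symbols at 0, 8392, and the highest smallest step above 0, at 1.29 against 0.29 to 1.0 in the other 8 tumors. Quantile normalization links these values, so they are not separate traits. Mitosis genes were highest in tumor 11 for 26 of 26, 32 further replication genes for 29 of 32, 25 nucleotide supply genes for 18 of 25 and G1/S control genes for 14 of 30, with 10 of these 30 at their lowest there. It was the lowest S7HP tumor for 7 of 7 erythroid, 6 of 6 T and NK cell, 7 of 10 macrophage, 7 of 10 stellate and fibroblast, 6 of 10 hepatocyte and 3 of 10 endothelial markers, and tumor 12 was the lowest for 6 of 10 endothelial markers. Summed erythroid markers were 11300.2 normalized counts in tumor 11 against 61942.9 in tumor 9 and 50173.7 in tumor 12, and summed hepatocyte markers were 120948.1, 352135.9 and 126612.2 in the same order. Hepatocyte markers were highest in tumor 9 for 10 of 10. The part of these values in the spread of the replication genes was not tested. In bulk tumors, fewer cells of a type and less RNA per cell cannot be told apart.

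**Figure D5:**
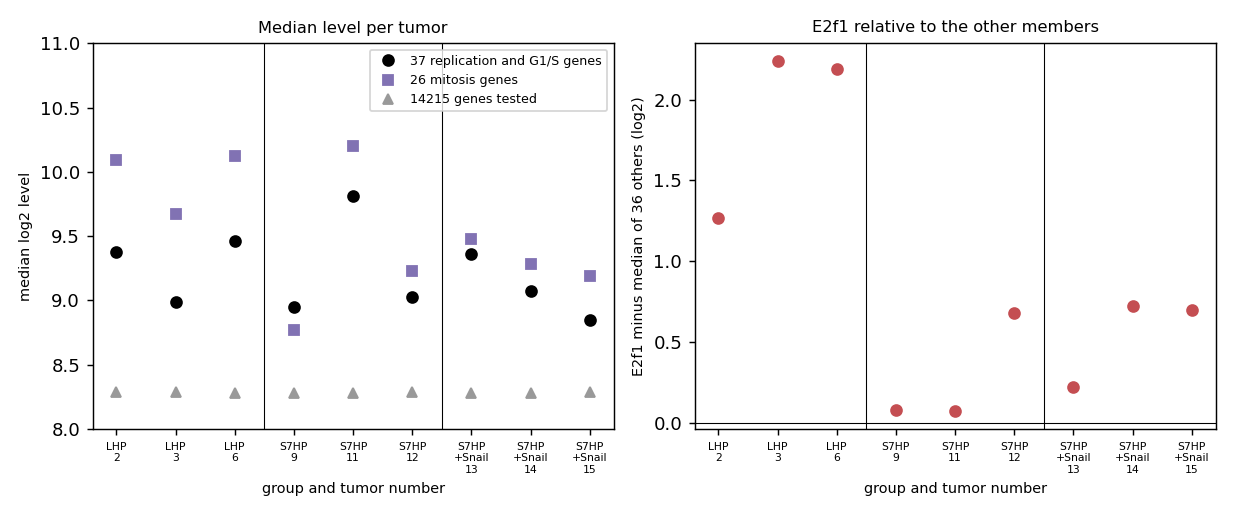
Left, median log2 level (y axis) of the 37 genes, of 26 mitosis genes and of all 14215 genes tested in each tumor (x axis). Right, E2f1 minus the median of the other 36 genes in the same tumor, which is at least 1.27 in LHP and at most 0.72 elsewhere.

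E2f1, like Mcm2 and Chaf1a, was higher in LHP than in both other groups once each tumor's shared level was subtracted. Relative to the median of the other 36 genes of its tumor, it was at 1.27, 2.24 and 2.19 in LHP tumors 2, 3 and 6, at 0.08, 0.07 and 0.68 in S7HP tumors 9, 11 and 12, and at 0.22, 0.72 and 0.70 in S7HP+Snail tumors 13, 14 and 15. LHP remained above the other groups without overlap. LHP tumor 3, low for most members, had the highest relative E2f1. On this scale, chosen after the spread was seen and without a test, 15 of 37 genes did not overlap between S7HP and LHP. The share of all genes was 31.9%, with the median of all 37 members subtracted, as in the shares below. The 5 above LHP were Mcm6, Gins2, Pcna, Tk1 and Chaf1b. The 10 below were Orc6, Cdt1, Mcm2, Mcm7, Pole, Rrm1, Tyms, E2f1, Ccne2 and Chaf1a. Between S7HP+Snail and S7HP, 8 genes did not overlap, against 14.5% of all genes. Cdt1, Pole, Rfc5, Lig1, Rrm1 and Ccne2 were above S7HP, and Mcm6 and E2f2 were below. Between S7HP+Snail and LHP, 8 genes did not overlap, against 25.8% of all genes. Gins2, Rfc5, Lig1 and Slbp were above LHP, and Mcm2, E2f1, E2f2 and Chaf1a were below. Before subtraction, 6, 3 and 8 members did not overlap in these comparisons as ordered here, against 42.1%, 20.5% and 30.5% of all genes. Subtraction takes out spread that the members share and can add it to other genes. The shares after subtraction are therefore not a like-for-like reference for the members.

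Neighbouring parts of the cell cycle machinery were read from 4 further lists, whose shares of called genes in S7HP against LHP were 6.25%, 16.7%, 15.4% and 12.0% in the order below, each under the 19.0% of all genes. Of 32 other replication genes, 1 rose and 1 fell in S7HP against LHP. Rnaseh2a, the catalytic subunit of ribonuclease H2, rose by 0.92 ± 0.27 (SE) and Atad2, a chromatin ATPase, fell by 1.14 ± 0.35 (limma, Benjamini-Hochberg adjusted p = 0.0422 and 0.0472). Each of the 2 calls was lost in 8 of 16 alternatives. The list's median difference was -0.17.

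Of 30 G1/S control genes, 2 rose and 3 fell in S7HP, with a median of -0.31. E2f8, an atypical repressor E2F, fell by 2.32 ± 0.53 (SE) and the cyclin D partner Cdk4 fell by 1.0 ± 0.26 (limma, Benjamini-Hochberg adjusted p = 0.0156 and 0.0247). E2f3, a further E2F gene, was the other gene called lower. The CDK inhibitor genes Cdkn1c and Cdkn1b, which encode p57 and p27, rose by 2.63 ± 0.70 and 1.0 ± 0.31 (limma, Benjamini-Hochberg adjusted p = 0.0294 and 0.0476). In S7HP+Snail against LHP the same 2 inhibitor genes rose by 3.54 and 1.30, with adjusted p of 0.0202 and 0.0358 by limma and Benjamini-Hochberg, and 0 genes of the list fell. Those calls were lost in 8 of 16 alternatives for Cdkn1b (adjusted p up to 0.123) and without LHP tumor 2 or LHP tumor 3 for Cdkn1c (adjusted p up to 0.0806). Calls of this list in S7HP against LHP also depended on single tumors. E2f8 was lost without LHP tumor 3 or S7HP tumor 9 (adjusted p up to 0.061), Cdkn1c when any of LHP tumors 2 and 3 and S7HP tumors 9 and 12 was omitted (adjusted p up to 0.104), Cdk4 in 5 of 16 alternatives and Cdkn1b in 11.

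Of 26 mitosis genes, 4 fell and 0 rose in S7HP, with a median difference of -0.58. Cks2, a CDK subunit, fell by 1.12, Cenpa, the centromeric histone, by 1.39, the spindle factor Tpx2 by 1.26 and the midzone protein Prc1 by 0.82 (limma, Benjamini-Hochberg adjusted p = 0.0116, 0.0126, 0.0447 and 0.0453). The Cenpa call held in all 16 alternatives, and that of Cks2 was lost without LHP tumor 3 (adjusted p = 0.0501). Tpx2 and Prc1 were lost in 7 and 10 of 16. In S7HP+Snail against LHP 1 mitosis gene fell, Cks2 by 0.96 (limma, Benjamini-Hochberg adjusted p = 0.041), a call lost in 9 of 16 alternatives. The list's median difference there was -0.67, and its groups did not overlap for 17 genes below and 1 above LHP, against 30.5% of all genes. Another 25 nucleotide supply genes gave 2 higher and 1 lower in S7HP. The serine hydroxymethyltransferase Shmt1 rose by 2.61 ± 0.32 (SE) and the reductase subunit Rrm2b fell by 1.23 ± 0.23 (limma, Benjamini-Hochberg adjusted p = 0.0012 and 0.00744), and both calls held in all 16 alternatives. Cmpk1, a pyrimidine nucleotide kinase, rose by 1.08 ± 0.28 (limma, Benjamini-Hochberg adjusted p = 0.0261), a call lost in 5 of 16. In S7HP+Snail against LHP, Shmt1 rose by 1.81 and Rrm2b fell by 1.21 (limma, Benjamini-Hochberg adjusted p = 0.0133 and 0.0168). The Shmt1 call held in all 16 alternatives, and that of Rrm2b was lost without LHP tumor 2, 3 or 6. The 4 lists had 0.0%, 6.67%, 3.85% and 8.0% called there, against 7.22% of all genes. In S7HP+Snail against S7HP none had a called gene by limma with Benjamini-Hochberg adjustment, against 2.30% of all genes. Of their genes, 2, 3, 0 and 1 had an unadjusted p under 0.05 there, against 17.8% of all genes.

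Markers of other cell types moved with the groups in which E2f1 and Gins2 differed. In S7HP against LHP, 6 of 10 hepatocyte markers rose, and 5 of 10 stellate and fibroblast markers fell. The summed stellate and fibroblast level was 40690 to 53790 normalized counts in LHP, 6985 to 10603.8 in S7HP and 15170 to 22600 in S7HP+Snail. Of 10 endothelial and 10 macrophage markers, 2 each fell, a share near the 19.0% of all genes called. Summed endothelial levels were 3289 to 4765, 1459 to 2937 and 2997 to 4958, and summed macrophage levels 6966 to 11600, 3577 to 6316 and 5188 to 10210 for the groups in the same order. None of these 4 lists had a marker at 0 in any tumor. Of 6 neutrophil markers in the files, 4 passed the filter and 0 of them were called. Their differences were all positive, with a median of 1.42, and summed neutrophil levels were 6372 to 15880 normalized counts in S7HP against 1411 to 10000 in LHP. The other 2, Mpo and Elane, were at 0 in all S7HP tumors. The part of these cell types in the levels of E2f1 and Gins2 was not tested.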

How the data were processed

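QuantSeq 3′ libraries were prepared from 500 ng of Trizol-extracted total RNA, per the labels' protocols. The submitters' processing notes name Bowtie2, edgeR and mm10, without version or role, and the sources used here give neither the read counter nor the gene models. The values deposited by the authors are on a log2 scale, of a quantile-normalized count plus 1, as the values show: in each of the 9 files, 9 times the unlogged value is whole for 100% of values (tolerance 0.001, widened in proportion for large values), and mean totals are 19910797. They are therefore not counts, so the count test planned for raw counts was not used.

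Genes at a log2 level of 4 or more in 3 or more libraries (14215 of 24421) were fitted in limma 3.58.1 (R 4.3.3; lmFit, then eBayes with trend and robust) over all 9 libraries, with 6 residual degrees of freedom. Tests were two-sided, Benjamini-Hochberg adjusted over all 14215 genes, and called under 0.05. SE and 95% intervals are limma's, and SD is over 3 tumors. Differences of log2(value + 1) understate changes of low genes. The procedure was tested on simulated data. Figures were drawn with matplotlib 3.10.9.

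The members and lists were chosen with earlier results of these data known. All 37 members are named, with up to 4 called genes of each further list and, without its values, E2f3. Of 191 entries in those further lists, 188 were matched to symbols. Coordinates are GENCODE M21 on GRCm38, and promoter sequences are RefSeq's on GRCm38.p6.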

Additional observations from a re-analysis of the deposited data

How the results depend on the processing

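Results were recomputed under 16 alternatives: other scaling, pseudocount, filter and variance model, fits of the compared libraries alone, and each tumor left out in turn. In S7HP against LHP, the count of members called higher was 1 and became 0 with eBayes without trend and robust, and the count called lower was 1 and became 2 with the 6 libraries alone. Leaving out 1 tumor gave 0 to 1 members higher, 1 to 2 lower and 1465 to 3163 genes in all, against 2702. In S7HP+Snail against LHP it gave 0 to 1 members lower and 293 to 1049 genes, against 1026, and 682 with the 6 libraries alone. In S7HP+Snail against S7HP it gave 63 to 451 genes, against 327, and 120 with the 6 libraries alone, with 0 members called in each of the 16. Counts over all genes moved by more than 1.5 times without LHP tumor 3 (1479), LHP tumor 6 (1465), S7HP tumor 9 (1594) or S7HP tumor 11 (1768) in the first comparison, without LHP tumor 2 (452), 3 (293) or 6 (311) in the second, and without LHP tumor 3 (205), LHP tumor 6 (187), S7HP tumor 9 (136), 11 (63) or 12 (87) in the third. Of 111 member differences, 51 changed sign in at least 1 alternative, none of them called and none above 0.54 in size. No paired analysis was possible because the groups share no replicate numbers. With 3 tumors a group and library depth unknown, small differences were not detectable.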
